A study of Mus musculus with 4 samples.

Results

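The fibroblast growth factor (FGF) system of TBV2 mouse embryonic stem cells (ESC) was followed through 6 ligand genes (Fgf1, Fgf4, Fgf5, Fgf8, Fgf15 and Fgf17) and the 4 receptor genes Fgfr1, Fgfr2, Fgfr3 and Fgfr4. These 10 genes were taken by symbol from the 28250 genes listed for every library, and all 10 had a value in each library. RNA-seq was made from cells treated for 24 h with 5 µM MS-275, an inhibitor of class I histone deacetylases, and from cells given solvent for the same time, with 2 libraries per group. TBV2 is a single mouse ESC line, so the results stand for 1 line. Per the labels, the line was kept on a feeder layer with LIF and cultured on gelatin-coated plates, for both groups alike. In such bulk RNA, fewer cells of a type and less RNA per cell cannot be told apart.

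FGF ligands bind receptor tyrosine kinases together with heparan sulfate chains on the cell surface, and the receptors signal through the adaptors Frs2 and Grb2 to Ras and the kinase ERK. In mouse ESC the main ligand made by the cells themselves is FGF4, and its signal through ERK prepares the cells to leave self-renewal. The subfamily of Fgf8 and Fgf17 patterns the gastrulating embryo and the midbrain, Fgf5 marks the primed epiblast, and Fgf15 is the mouse counterpart of human FGF19.

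The deposited measure is a normalized expression value, a signal without a stated formula, so its scale is used only between libraries for the same gene. Reads behind it were counted as distinct alignment positions (a chromosome, a start and a strand counted once), of which the libraries held 9122347 to 10973569. The replicate numbers of the readouts ran against each other: over 12983 genes (not independent of each other), the log ratio between the replicates in the values correlated with that in the positions at r = -0.52 with solvent and -0.63 with MS-275. Numbers are given as deposited for each readout, and such an exchange would stay within a group. Without a term for the replicate, limma called 1 of 20336 genes higher and 0 lower at an adjusted p under 0.05, while an unadjusted p under 0.05 was reached by 2974 higher and 564 lower ones. With the replicate number as a block it called 4277 higher and 1314 lower (3379 and 2864 after scaling by the median ratio of genes), and "rose" and "fell" below refer to that fit unless another is named.

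Promoter sequences are shown for members that moved, one that fell and others that rose. They are the 250 bases before the start given by RefSeq on GRCm38.p6, 5′ to 3′ on the strand of the gene, and capitals mark GGGCGG and CCAAT on either strand. Fgf4, which fell, is at chr7:144861136-144861385 (plus strand).
Fgf4: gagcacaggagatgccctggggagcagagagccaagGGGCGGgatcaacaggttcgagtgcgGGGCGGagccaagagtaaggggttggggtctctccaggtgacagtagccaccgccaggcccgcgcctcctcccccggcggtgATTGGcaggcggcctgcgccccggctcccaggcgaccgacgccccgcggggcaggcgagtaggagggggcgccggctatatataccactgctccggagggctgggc
Fgfr3, which rose, has a first start with the window chr5:33721474-33721723 (plus strand) and a second one with chr5:33722056-33722305, where a pair of GGGCGG matches overlap.
Fgfr3 first start: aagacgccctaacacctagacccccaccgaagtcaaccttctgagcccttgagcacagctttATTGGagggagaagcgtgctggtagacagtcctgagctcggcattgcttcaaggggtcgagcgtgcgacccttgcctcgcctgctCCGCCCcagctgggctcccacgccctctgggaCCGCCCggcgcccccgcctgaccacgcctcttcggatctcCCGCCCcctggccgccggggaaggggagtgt
Fgfr3 second start: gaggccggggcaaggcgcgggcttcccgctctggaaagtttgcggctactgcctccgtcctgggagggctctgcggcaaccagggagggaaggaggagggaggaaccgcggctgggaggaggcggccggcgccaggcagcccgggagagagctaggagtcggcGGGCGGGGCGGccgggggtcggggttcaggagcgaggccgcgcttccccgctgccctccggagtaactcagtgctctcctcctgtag
Fgfr2, which also rose, is at chr7:130266809-130267058 (minus strand) and holds none of the capitals.
Fgfr2: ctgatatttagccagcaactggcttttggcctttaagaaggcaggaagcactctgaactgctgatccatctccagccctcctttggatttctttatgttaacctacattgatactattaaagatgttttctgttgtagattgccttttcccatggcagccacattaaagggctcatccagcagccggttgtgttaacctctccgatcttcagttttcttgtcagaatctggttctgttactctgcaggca

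The promoter table held 5 of the 10 members, with 1 start each for Fgf4, Fgf5, Fgfr2 and Fgfr4. Windows of 300 bases that also include the 50 bases after the start were compared with 32851 promoters. The Fgf4 window held 28 CpG and was 69.7% G+C, and the windows of Fgfr3 held 26 and 30 CpG, against a median of 7 CpG and 52.7% G+C over all promoters. Windows of Fgf5 (29 CpG) and Fgfr4 (20 CpG), 2 members that did not pass the test, were rich in CpG too. The Fgfr2 window held 4 CpG and was 43.7% G+C. On mm9, the most 5′ exon part of the main Fgfr2 locus (chr7:137409778-137410322) had 0 positions in each library. Whether the start of this window was used in these cells was not tested. GGGCGG was found in the windows of Fgf4, Fgf5, Fgfr3 and Fgfr4, and in 35.7% of all promoters. CCAAT was found in those of Fgf4 and of the first start of Fgfr3, and in 37.4% of all. TATAAA occurred in the window of Fgf5 and in 13.6% of all. ATGCAAAT (1.74% of all) and CCGGAAGT (3.89% of all) occurred in none of these 5 members. Fgf1, Fgf8, Fgf15, Fgf17 and Fgfr1 had no window to search. Among the 5 members with a window, those that fell, rose or did not pass thus shared GGGCGG and a CpG count above the median, apart from Fgfr2.

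MS-275 changed the ligands in opposite directions and raised a subset of the receptors. With the replicate block, Fgf1, Fgf8, Fgfr2 and Fgfr3 rose and Fgf4, Fgf15 and Fgf17 fell, while Fgf5, Fgfr1 and Fgfr4 did not pass. These are 4 of 10 members called higher, against 21% of all genes tested, and 3 of 10 called lower, against 6.46%. The share of all genes called lower depended on the scaling. After median-ratio scaling with the block 4 and 3 members were called, and 3379 higher and 2864 lower of 20336 genes. On positions with the block 4 and 3 of 9 members were called, against 22.8% and 21.6% of genes. Without the block 0 of 10 members passed in either direction, against 0.00492% of all genes called higher and 0% lower. The values of the groups did not overlap for 4 members that were higher (32.3% of all genes) and 4 that were lower (12%). At least 2-fold changes within both replicate pairs were seen for the same 7 members, 4 higher (11.5% of all listed genes) and 3 lower (2.04%). The median log2 fold change of the members was 0.31, and that of all genes tested was 0.20 (-0.01 after scaling by the median ratio of genes), so a small rise carries the offset of all genes.

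**Figure D1:**
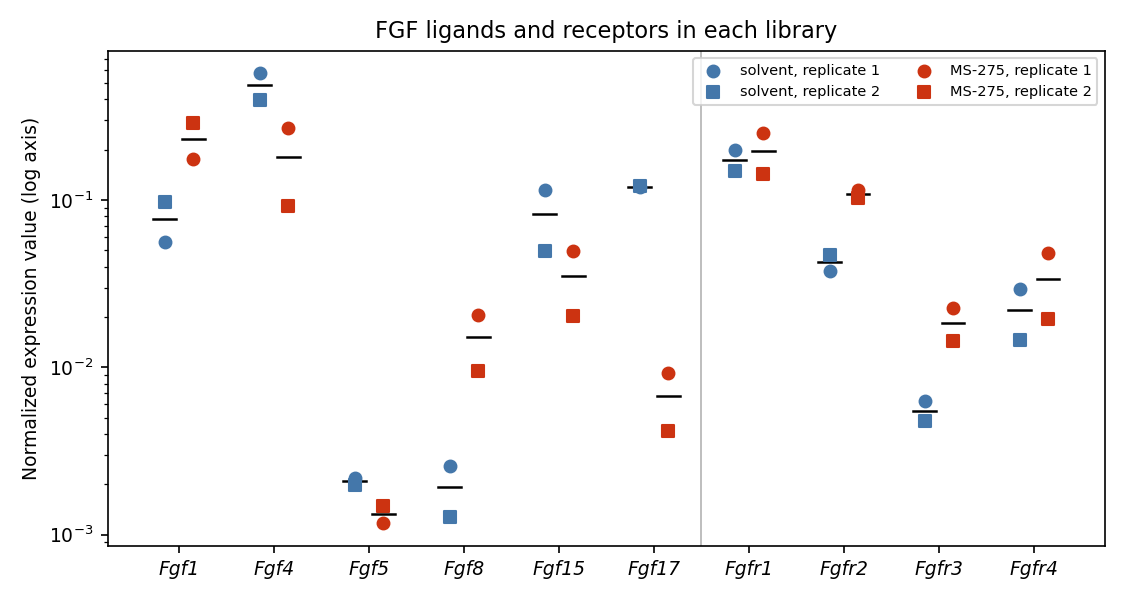
Normalized expression value (log axis) of the 10 members in each library, with solvent in blue and MS-275 in red, circles for replicate 1, squares for replicate 2 and black bars for the mean of 2 libraries. Fgf17 fell from a mean of 0.120 to 0.00673, and Fgf1, Fgf8, Fgfr2 and Fgfr3 lay above all their solvent values with MS-275.

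Fgf4, the ligand that mouse ESC make in the largest amount, lost much of its signal. It lies at chr7:152047291-152051148 on mm9. Its value was 0.573 and 0.397 with solvent and 0.269 and 0.0922 with MS-275, so all treated libraries were below all controls. The log2 fold change was -1.56 ± 0.25 (SE, block fit, adjusted p = 0.000337 by limma), and -1.08 and -2.05 within pairs. Without the block the adjusted p was 0.163. Leaving out MS-275 replicate 2 moved the log2 fold change to -0.81, and leaving out MS-275 replicate 1 moved it to -2.31. Distinct positions on its exons numbered 1141 and 1717 with solvent and 369 and 898 with MS-275. On these positions limma-voom called the fall also without a block (adjusted p = 0.0319), against 8.09% of the 16994 genes tested on positions called lower.

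Fgf17 had the deepest fall of the members and was number 3 from the lowest log2 fold change of all 20336 genes. The gene lies at chr14:71036012-71042075 (mm9, minus strand). With solvent its values of 0.119 and 0.121 were nearly equal, and with MS-275 they were 0.00930 and 0.00415. The libraries of the groups were far apart, with ratios of 12.8 and 29.1 between solvent and MS-275 in the pairs. The log2 fold change was -3.45 ± 0.30 (SE, adjusted p = 2.23e-06 with the block, 0.0581 without). Exon positions dropped from 300 and 199 to 12 and 16, and the bases of its exons covered by a read from 93.4% and 88.3% to 21.2% and 30.1%. In the limma-voom fit without a block its adjusted p was 0.00504.

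Fgf15, the neighbour of Fgf4 on the chromosome, fell as well. It lies at chr7:152082437-152086858 (mm9). Values were 0.115 and 0.0498 with solvent and 0.0497 and 0.0202 with MS-275. The lower solvent library and the higher MS-275 library were thus nearly equal, and the fall was seen within the pairs (-1.13 and -1.12). The adjusted p was 0.00533 with the block and 0.423 without. With a single library left out, the log2 fold change of -1.13 moved to -0.56 (no solvent replicate 1), to -0.57 (no MS-275 replicate 2) or to -1.69 (no replicate 2 of the solvent group, and likewise no replicate 1 of the treated group). Positions numbered 151 and 180 with solvent and 53 and 86 with MS-275, with an adjusted p of 0.0209 by limma-voom without a block.

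Fgf8, which shares a subfamily with Fgf17, moved the opposite way from a level close to nothing. It lies at chr19:45811288-45817405 (mm9, minus strand). Values were 0.00256 and 0.00128 with solvent and 0.0207 and 0.00952 with MS-275, so all treated libraries were higher. The ratios within pairs were 8.07 and 7.44. On the log2 scale with 0.005 added, which understates the change of low genes, the rise was 1.49 ± 0.28 (SE, adjusted p = 0.00103 with the block, 0.117 without). The reads behind it were few, with 2 and 1 positions in solvent and 14 and 18 with MS-275. These positions passed limma-voom without a block as well (adjusted p = 0.0237), against 12% of genes called higher there.

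Fgf5, the marker of the primed epiblast, stayed at the bottom of the range. It lies at chr5:98683203-98706049 (mm9). Values were 0.00217 and 0.00199 with solvent and 0.00117 and 0.00149 with MS-275. The treated libraries were lower, but the log2 fold change of -0.16 did not pass with the block (95% interval -0.61 to 0.29, adjusted p = 0.612). Only 4 to 11 positions per library lay on its exons, too few for the test on positions, and a change of Fgf5 was not detectable at this depth.

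**Figure D2:**
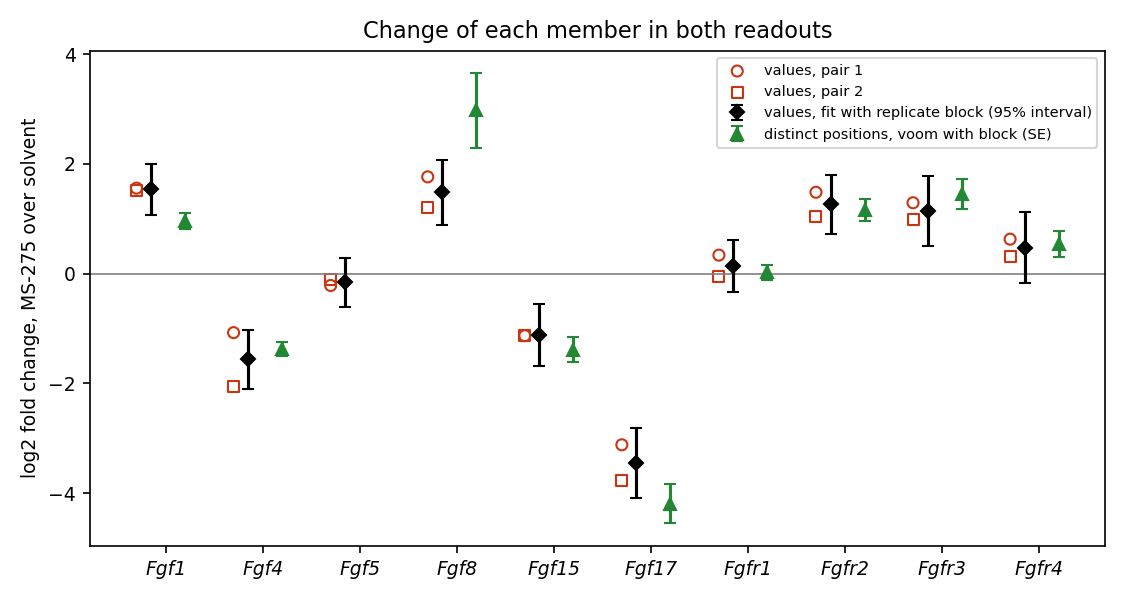
Log2 fold change of each member, MS-275 over solvent, as the change within each replicate pair (open red symbols), as the limma estimate with the replicate block and its 95% interval (black), and as the limma-voom estimate from distinct positions with its SE (green). Estimates from both readouts had the same sign for the 9 members tested in both, and Fgf5 was not tested on positions.

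Fgf1, the ligand that binds all FGF receptors, rose in value. The gene lies at chr18:38998327-39089058 (mm9, minus strand). Values were 0.0563 and 0.0975 with solvent and 0.175 and 0.287 with MS-275, and all treated libraries were higher. The ratios within pairs were 3.12 and 2.95, and the log2 fold change was 1.54 ± 0.22 (SE, adjusted p = 0.000121 with the block, 0.109 without). Positions on its exons were 579 and 215 with solvent and 942 and 612 with MS-275. On these positions the rise of 0.96 passed with the block (adjusted p = 0.00014 by limma-voom) and not without it (0.159).

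The reads that made up this rise lay in 1 exon. The last exon (chr18:38998327-39001775) holds the end of the coding sequence and the 3′ untranslated region, and it carried 540 and 209 positions with solvent and 941 and 611 with MS-275. All other annotated Fgf1 exons together carried 39 and 6 positions with solvent and 1 and 1 with MS-275. The exon with the start codon (chr18:39018200-39018515) had 20 and 2 with solvent and 0 and 0 with MS-275, and the next but one (chr18:39006701-39006804) had 7 and 1 against 0 and 1. So the coding exons before the last were read less with MS-275, while the last exon was read more.

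The last intron of Fgf1 showed the same contrast with larger counts. This intron (chr18:39001776-39006700) held 284 and 124 positions with solvent and 23 and 30 with MS-275, and all introns together held 350 and 165 against 35 and 42. Of all positions within the gene, 41.9% (95% exact binomial interval 38.7 to 45.1) and 45.0% (39.9 to 50.2) lay outside the last exon with solvent. With MS-275 these shares were 3.68% (2.59 to 5.06) and 6.57% (4.80 to 8.75). The intervals cover counting error only, and the gap between the groups was far wider than that between replicates. With 2 libraries per group, an exact permutation test cannot give a p under 0.333. Fgf1 lies within the annotated span of Arhgap26 (chr18:38761188-39535938), which is on the plus strand. The reads do not carry their strand of origin, and which transcript or gene they came from was not tested.

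**Figure D3:**
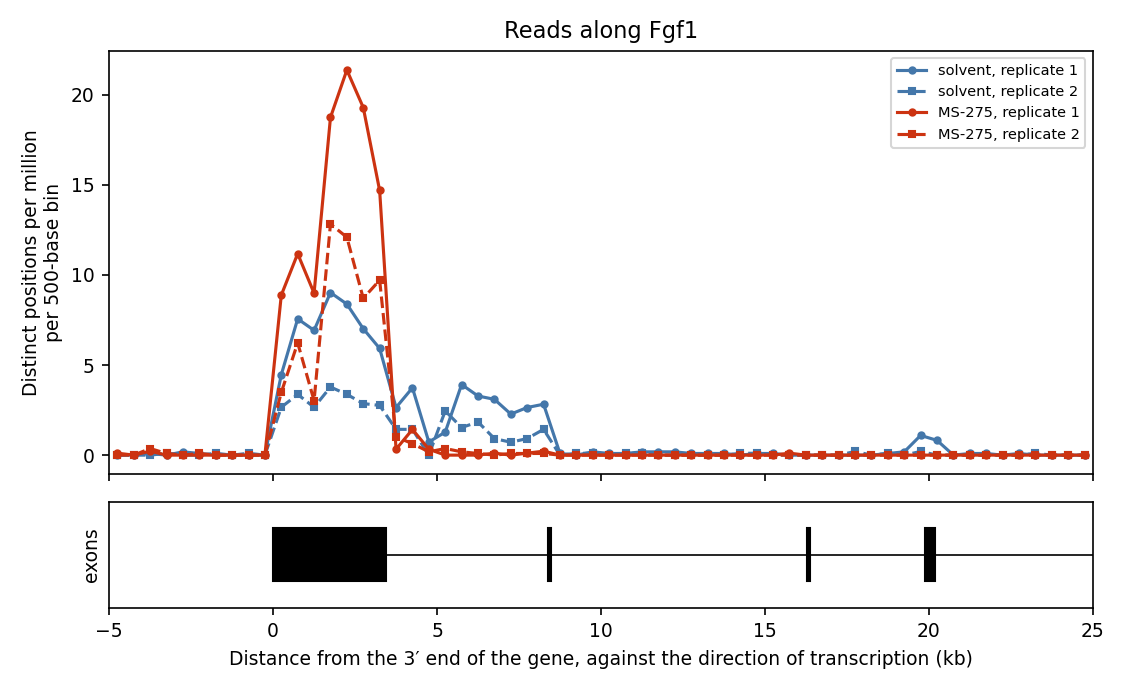
Distinct positions per 1000000 of the library in bins of 500 bases along the 3′ part of Fgf1, against distance from its 3′ end in kb, with solvent in blue, MS-275 in red and annotated exons as black boxes. Over the last exon MS-275 libraries lay above solvent libraries of the same replicate, and over the last intron solvent libraries held 284 and 124 positions against 23 and 30.

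This shift was compared with all genes after it had been seen in Fgf1. Among 10080 protein-coding genes with at least 100 positions in each library, the median share outside the last exon was between 66.3% and 69.5% in all 4 libraries. The mean share of Fgf1 went from 43.4% to 5.13%, a change of -38.3 percentage points and the lowest of these 10080 genes. The median change was -0.07 points, and the 1% of genes with the deepest changes lay under -9.20. Fgf4 changed by -0.73 points, Fgfr1 by -4.45, Fgfr2 by -2.42 (introns out to its distant annotated exons included) and Fgfr4 by 0.76. All lay between the lowest and the highest 1% of genes (-9.20 and 11.5).

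**Figure D4:**
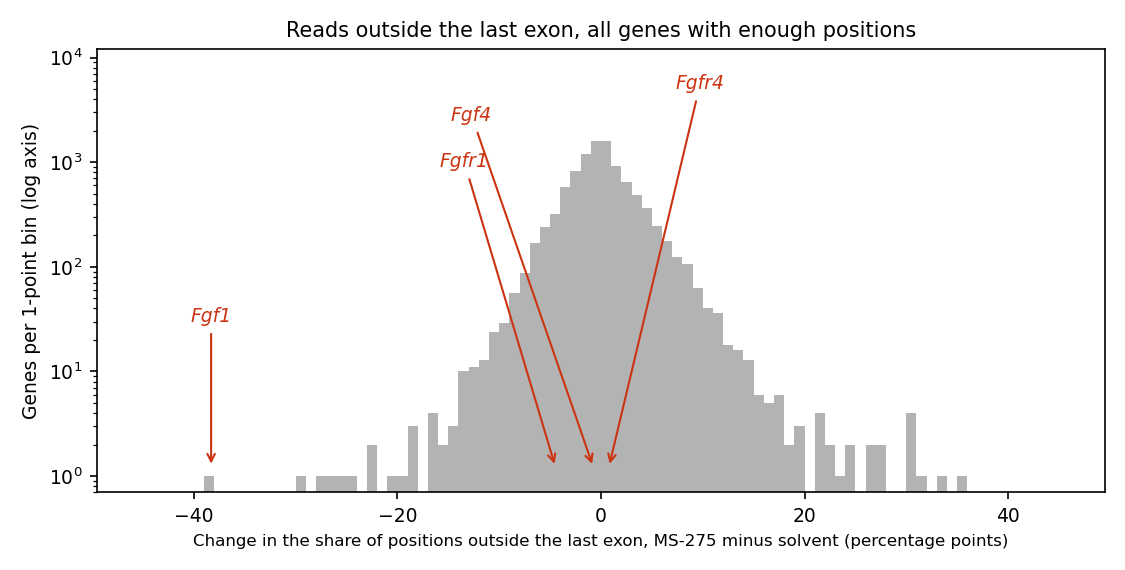
Number of genes (log axis) by the change in the share of positions outside the last exon, MS-275 minus solvent in percentage points, for 10080 genes. Fgf1 stands alone at -38.3, while Fgf4, Fgfr1 and Fgfr4 lie near 0 and Fgfr2 (-2.42) is not marked.

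Fgf17, Fgf4, Fgfr2 and Fgfr3 moved in the terminal exon and in the other exons. The terminal exon of Fgf17 went from 121 and 107 positions to 2 and 7, and its other exons from 179 and 92 to 10 and 9. For Fgf4 the terminal exon fell from 1078 and 1616 to 349 and 830 and the others from 63 and 101 to 20 and 68. In Fgfr2, 148 and 70 positions on the terminal exon became 244 and 229, and 95 and 50 on the other exons became 161 and 210. Introns of Fgfr2, out to its distant annotated exons, held 6238 and 5180 positions with solvent and 4834 and 5613 with MS-275. In Fgfr3, 23 and 14 became 67 and 47 on the terminal exon, and 20 and 14 became 34 and 60 on the others. Fgf15 has nearly all of its unshared exon bases in the terminal exon, and Fgf5 and Fgf8 had too few reads for a split.

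Of the receptors, Fgfr2 and Fgfr3 rose while Fgfr1, the main receptor of ESC, did not pass. Fgfr1 lies at chr8:26624126-26686186 (mm9). Its values were 0.198 and 0.149 with solvent and 0.252 and 0.143 with MS-275, with the groups overlapping. The log2 fold change of 0.14 had a 95% interval of -0.33 to 0.61 (block, adjusted p = 0.681), and it was -0.14 after scaling by the median ratio of genes. Positions numbered 837 and 761 with solvent and 721 and 1052 with MS-275.

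Fgfr2, which responds to different ligands depending on its splice form, had values of 0.0377 and 0.0472 with solvent and 0.114 and 0.102 with MS-275. It lies at chr7:137305965-137410322 (mm9, minus strand), leaving out 2 distant annotated exons. Both treated libraries were above both controls, by ratios of 3.03 and 2.17 within pairs. The log2 fold change was 1.26 ± 0.25 (SE, adjusted p = 0.00172 with the block, 0.190 without). Positions rose from 243 and 120 to 405 and 439 (adjusted p = 0.0315 by limma-voom without a block).

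The mutually exclusive exons of Fgfr2 that form the third immunoglobulin-like domain were read a few times. The exon of form IIIc (chr7:137341933-137342077, 145 bases), usual in mesenchymal cells, had 7 and 4 positions with solvent and 9 and 5 with MS-275. The exon of form IIIb (chr7:137343272-137343419, 148 bases), usual in epithelia and a receptor for FGF7 and FGF10, had 0 and 0 with solvent and 7 and 1 with MS-275. Form IIIb reads were thus seen in both treated libraries and in neither control, and with so few reads a difference in splice form was not detectable.

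Fgfr3 had values of 0.00625 and 0.00476 with solvent and 0.0225 and 0.0144 with MS-275. It lies at chr5:34064373-34079716 (mm9). The treated libraries were higher, by ratios of 3.60 and 3.01 within pairs. The log2 fold change was 1.14 ± 0.30 (SE, adjusted p = 0.00984 with the block, 0.299 without). Under quantile normalization with the block the call was lost (adjusted p = 0.159). Positions went from 43 and 28 to 101 and 107, which limma-voom called without a block (adjusted p = 0.0258).

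Fgfr4, at chr13:55254001-55270120 (mm9), had values of 0.0294 and 0.0146 with solvent and 0.0481 and 0.0194 with MS-275. The groups overlapped, although the treated library was higher in both pairs. The log2 fold change of 0.47 did not pass (95% interval -0.17 to 1.12 with the block, adjusted p = 0.268), and positions were 94 and 73 against 98 and 168.

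Levels of different genes were compared per kb of unshared exon and 1000000 positions on exons. Among the receptors Fgfr1 led in all 4 libraries, at 16.9 and 16.1 with solvent and 17.9 and 20.0 with MS-275. Fgfr2 followed at 4.70 and 2.44, rising to 9.65 and 7.99, and Fgfr4 at 3.83 and 3.12 against 4.92 and 6.43. Fgfr2 and Fgfr4 changed places between the solvent libraries, so their order there was not resolved. Fgfr3 was the lowest receptor throughout, at 0.904 and 0.618 with solvent and 2.62 and 2.12 with MS-275.

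On the same per-length scale, the summed level of 22 FGF genes went from 143 and 150 with solvent to 96.9 and 90.5 with MS-275. These genes include Fgf11, Fgf12, Fgf13 and Fgf14, which act inside the cell and are not receptor ligands. Fgf11 made up 1.73% and 2.23% of the sum with solvent and 5.74% and 5.49% with MS-275. Fgf4 made up 38.0% and 57.3% of the sum with solvent and 22.4% and 44.6% with MS-275. Fgf17 went from 18.0% and 11.9% to 1.31% and 1.43%, and Fgf15 from 11.5% and 13.7% to 7.33% and 9.72%. Fgf1 went from 12.6% and 4.68% to 37.3% and 19.8%, with nearly all of its treated reads in the last exon. Fgf8 held at most 2.01% and Fgf5 at most 0.444% in any library. Per length, Fgf1 exceeded Fgf4 in MS-275 replicate 1 (36.1 against 21.7) and in no other library.

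**Figure D5:**
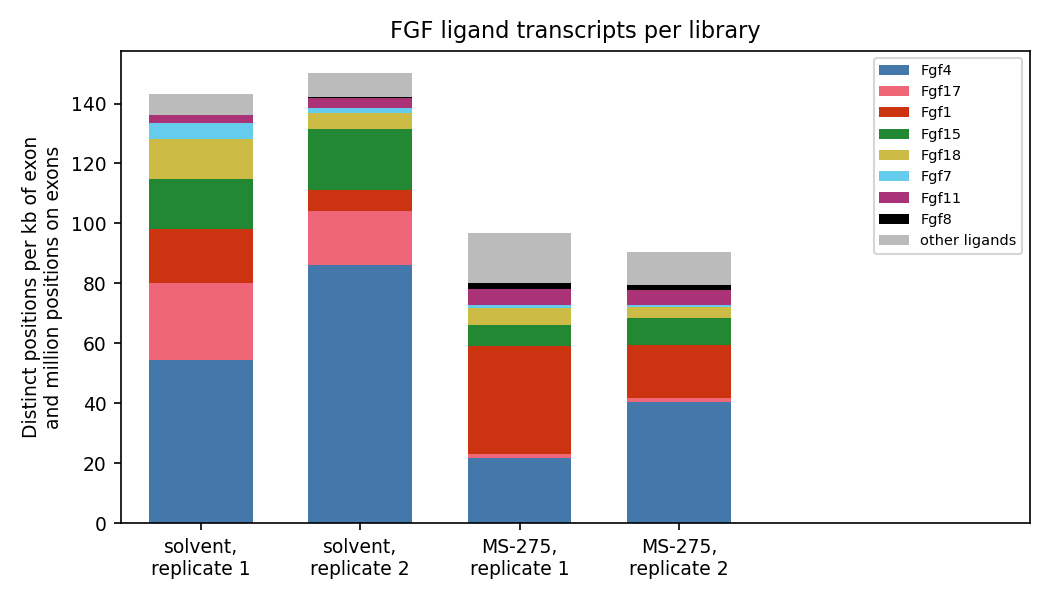
Distinct positions per kb of unshared exon and 1000000 positions on exons, stacked over FGF genes (Fgf11 to Fgf14 included), for each of the 4 libraries. The summed level was 143 and 150 with solvent and 96.9 and 90.5 with MS-275, with the Fgf17 share shrinking to 1.31% and 1.43% and the Fgf1 share growing.

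Fgf4 and Fgf15 sit in a run of genes on chromosome 7 with Fgf3 and the cyclin gene Ccnd1. Fgf3 lies 16950 bases from Fgf4, Fgf15 lies 31289 bases to the other side, and Ccnd1 28978 bases beyond Fgf15. Fgf3 had values of 0.0138 and 0.00522 with solvent and 0.00359 and 0.00251 with MS-275 (log2 fold change -0.79, adjusted p = 0.0434 with the block). Ccnd1, a cell cycle regulator, went from 0.254 and 0.301 to 0.0906 and 0.0658 (log2 fold change -1.78, adjusted p = 6e-05 with the block). Oraov1, which begins between Fgf15 and Ccnd1 and overlaps the span of Ccnd1, had values of 0.110 and 0.140 against 0.0772 and 0.126. It did not pass (adjusted p = 0.328 with the block). In this stretch 4 genes fell, then, which were Fgf3, Fgf4, Fgf15 and Ccnd1. Oraov1 was lower in both pairs (-0.49 and -0.14) without passing.

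Of the 29 neighbours of the other 8 members that were tested, 2 rose and 4 fell with the block, against 21% and 6.46% of all genes. Epb4.9, 227 bases from Fgf17, fell by 1.90 on the log2 scale (adjusted p = 4.13e-05 with the block), while Npm2 on the other side had a log2 fold change of 0.25 (adjusted p = 0.573). Next to Fgf8, Fbxw4 fell by 1.23 (adjusted p = 0.00648), against the rise of Fgf8. Fgf1 lies within the span of Arhgap26, a gene on the opposite strand that did not pass (log2 fold change 0.75, adjusted p = 0.0709). Spry4, a feedback inhibitor 237405 bases from Fgf1 on its 3′ side, fell by 0.77 (adjusted p = 0.042). Nsd1 beside Fgfr4 fell by 1.47 and Zfp346 on its other side rose by 0.85. The neighbour 1700007G11Rik of Fgf5 rose by 1.68 from values near 0, and no neighbour of Fgfr2 or Fgfr3 passed.

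The other FGF genes, which include the intracellular Fgf11 to Fgf14, moved in both directions. Of 14 tested with a value, 4 rose and 4 fell with the block, against 21% and 6.46% of all genes. Fgf12 was among those that rose, and the median log2 fold change of the 14 was 0.25. With the block, 3 rose and 5 fell after median-ratio scaling, and 1 rose and 5 fell after quantile normalization. Of all 20336 genes, 3379 rose and 2864 fell under the first of these, and 2936 and 2961 under the second. Fgf9, a ligand of IIIc receptor forms, had values of 0.00048 and 0.00064 with solvent and 0.020 and 0.018 with MS-275. The groups lay far apart (log2 fold change 2.11 ± 0.27, adjusted p = 4.93e-05 with the block, 0.0581 without), on 2 and 0 positions against 69 and 39. Fgf23, the phosphate hormone, also rose (1.10, adjusted p = 0.0111, or 0.0863 with quantile normalization), on 8 and 6 against 42 and 15 positions. Fgf7 and Fgf18, ligands typical of mesenchyme, fell by 1.57 and 1.09 (adjusted p = 0.00279 and 0.0213).

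FGF reaches its receptor with the help of co-receptors, binding proteins and heparan sulfate. Of 18 co-receptors and binding proteins 8 rose and 0 fell with the block (10 did not pass), against 21% and 6.46% of all genes, with a median of 0.42 against 0.20. After median-ratio scaling 8 rose and 1 fell, and after quantile normalization 4 rose and 0 fell. Flrt3, a membrane protein that binds FGF receptors, went from 0.0251 and 0.0179 to 0.0815 and 0.0586 (log2 fold change 1.5, adjusted p = 0.00103). Gpc5, a glypican, went from 0.00187 and 0 to 0.0123 and 0.0122 (adjusted p = 0.000451). Among 14 heparan sulfate enzymes 4 rose and 2 fell, with a median of 0.31, and under both scalings 2 rose and 4 fell. The 2 that fell were Sulf1 and Sulf2, the enzymes that remove 6-O-sulfate from the chains outside the cell. Sulf1 went from 0.272 and 0.189 to 0.115 and 0.0522 (-1.48, adjusted p = 0.000238), and Sulf2 from 0.334 and 0.274 to 0.184 and 0.0682 (-1.38, adjusted p = 0.000932). Of the enzymes that build the chains, Hs3st1 (1.11) and Ndst3 (0.89) rose most, from low values, and neither passed with quantile normalization (adjusted p = 0.0799 and 0.109).

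Inside the cell, few adaptors and Ras-ERK transducers passed the test. Of 20 tested, 1 rose and 1 fell with the block and 18 did not pass, against 21% higher and 6.46% lower of all genes. Their median was -0.04. With the block, 0 rose and 3 fell after median-ratio scaling (median -0.32), and 1 rose and 3 fell with quantile normalization. Grb2, the adaptor, rose by 0.75 (adjusted p = 0.0299, or 0.143 after median-ratio scaling). Of 17 ERK feedback and target genes 4 rose, 3 fell and 10 did not pass, beside the same shares of all genes. The median of these 17 was 0.04 (-0.24 after median-ratio scaling, where 4 rose and 5 fell with the block).

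Etv5, a transcription factor induced by FGF, went from 0.306 and 0.655 to 0.213 and 0.294 (-0.83, adjusted p = 0.0186), and Spry4 from 0.264 and 0.253 to 0.236 and 0.0942 (-0.77, adjusted p = 0.042). The immediate early genes Egr1 and Fos rose by 2.78 and 2.15 (adjusted p = 2.23e-06 and 8.98e-06). Their replicates were far apart, with Egr1 at 0.0139 and 0.926 with solvent and 0.159 and 5.08 with MS-275, so that without the block the adjusted p was 0.502. The other genes of this list that passed, named after their values were seen, were Dusp5, an ERK phosphatase (1.90, adjusted p = 2.93e-05), and Ier3 (1.91, adjusted p = 2.1e-05), which rose, and Etv4, which fell by 0.66 (adjusted p = 0.0419). All pathway lists together had 83 genes tested, of which 21 rose and 10 fell with the block, beside 21% and 6.46% of all genes. After median-ratio scaling with the block 17 rose and 18 fell, beside 3379 and 2864 of all 20336 genes.

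Marker genes of several cell types moved beside the members, and their part in these results was not tested. Fibroblast markers, which feeder cells would carry, were detected in full (0 of 14 at zero in each library). Their summed value was 0.388 and 0.326 with solvent and 0.756 and 0.722 with MS-275. With the block 7 of 14 rose and 0 fell, against 21% and 6.46% of all genes. After median-ratio scaling 5 rose and 1 fell, and with quantile normalization 4 and 3. Col1a2 was among those that rose (0.0810 and 0.0883 against 0.153 and 0.216). In both pairs 9 were higher and 3 lower. These 3, named after their values were seen, were Col3a1, Dcn and Prrx1, which did not pass. Of 14 pluripotency markers 0 rose and 5 fell, against 21% and 6.46% of all genes. Pou5f1 fell by 0.95 (adjusted p = 0.0473), while Sox2 and Nanog did not pass. In both pairs 12 of 14 were lower, against 5397 of 20336 genes. With the block, 9 fell after median-ratio scaling and 7 with quantile normalization, where 2864 and 2961 of all genes fell. The summed value of the pluripotency markers was 7.89 and 27.5 with solvent and 6.41 and 15.9 with MS-275. The labelled cell type was thus present by its markers in all libraries.

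Some lineage markers also passed the test, against 21% of all genes called higher and 6.46% lower. Of 8 neural markers tested 5 rose, led by Nes (0.0117 and 0.0204 against 0.0941 and 0.0978), and 1 fell. The 1 that fell was Sox1 (0.0299 and 0.00897 against 0.00613 and 0.00371, log2 fold change -1.16, adjusted p = 0.012). Of 10 primitive streak and mesoderm markers 3 rose, with T at 0.00699 and 0.00354 against 0.0466 and 0.0222, and 0 fell. Of 11 extraembryonic endoderm markers 3 rose, with Sox17 at 0.00686 and 0.00113 against 0.0230 and 0.0115, and 1 fell. Of 9 primed epiblast markers 4 rose and 4 fell, with Otx2 falling by 1.44 (adjusted p = 0.000259). Among the 4 that rose, Pou3f1 rose most, by 1.82 (adjusted p = 0.000185). Sox1 and Pou3f1 were named after their values were seen. With quantile normalization and the block, 2 neural markers rose and 1 fell, 3 streak and mesoderm markers rose and 2 fell, 2 endoderm markers rose and 1 fell, and 3 epiblast markers rose and 5 fell.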

How the data were processed

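RNA was poly(A) selected, primed with random hexamers, which leaves the strand unmarked, and sequenced on a GAIIx. The authors mapped reads to mm9 and deposited, per library, Genomatix normalized expression values, which are a signal and not counts, and the alignments. The formula and the aligner are not given in the sources used here. Ratio tables and shorter value tables of the authors were not used. Members and gene lists were chosen with earlier results of these data known.

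Of 28250 genes, the 20336 that reached 0.001 in 2 libraries or more were fitted with limma 3.58.1 (R 4.3.3, lmFit and eBayes with a trend) on log2(value + 0.005), with Benjamini-Hochberg adjustment over all genes tested and calls at an adjusted p under 0.05. The fit without a block was the main one. Column headers of the authors mark the first replicate of each condition as old, which is the source of the pairing. The alignment name of replicate 1 says new instead, and this conflict of labels was not settled. Deviations from group means correlated at 0.764 between libraries of the same number, so the fit with the replicate number as a block is printed beside it. Nothing says that the libraries came from separate cultures, so p-values may measure technical spread.

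Distinct positions of the 35-base alignments (by their midpoint) were counted with Python 3.11.15 on exon bases of GENCODE M1 genes (mm9) held by 1 gene, and fitted with limma-voom where at least 10 positions lay in at least 2 libraries (16994 genes). The alignments of replicate 2 in both conditions held no repeats. Sequences come from RefSeq (GRCm38.p6) and no coordinates were converted. The identity of the proteins was not analysed here, and 1 gene that the naming rule takes is not reported here. Steps were tested on simulated data for MS-275 against solvent over 20336 genes, of which 200 changed by 2 on the log2 scale. Without the block 90.5% were recovered, with 0 false calls, and with the block 99.5%, with 13 false calls. Simulated replicates carried the same shift in both groups, as the block assumes, so a gain with the block was built in. Far fewer genes were changed than the block fit called in the data.

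Named genes are the 10 members, per pathway list the 2 that rose most and the 2 that fell most with the block, the 2 nearest protein-coding genes on each side of a member, and Pou5f1, Sox2, Nanog, Otx2, T, Sox17, Nes and Col1a2. The comparison of reads in the last exon with all genes was chosen after the data were seen. Alternatives were other pseudocounts, filters, scalings and variance models, each library left out, and other folds and floors.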

Additional observations from a re-analysis of the deposited data

How the results depend on the processing

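The fit with the block and the fit without it gave the same log2 fold changes and different calls. Genes called higher and lower numbered 1 and 0 as reported, 4277 and 1314 with the replicate block, 3379 and 2864 with median-ratio scaling and the block, 2936 and 2961 with quantile normalization and the block, and 466 and 65 among genes with a mean value of at least 0.01. With the block, pseudocounts of 0.001 and 0.02 (added after seeing the data) gave 4216 and 1220, and 3790 and 1158. No gene was called higher with pseudocounts 0.001 or 0.02, no filter, median-ratio scaling, quantile normalization or eBayes without a trend and no block (0 in each, with 2153 to 2970 higher at an unadjusted p under 0.05). Distinct positions gave 2031 and 1374, and 3879 and 3670 with the block. Members called were 4 higher and 3 lower with the block, also under both pseudocounts and median-ratio scaling, 3 and 3 with quantile normalization and the block, 0 and 1 (Fgf17) at a mean of at least 0.01, 3 and 3 on positions and 4 and 3 on positions with the block. Pathway genes called were 21 and 10 with the block, 17 and 18 with median-ratio scaling and the block, 12 and 16 with quantile normalization and the block, 19 and 6 and 20 and 6 with the pseudocounts and the block, and 1 higher at a mean of at least 0.01. Leaving out each library gave 0 to 160 genes higher, 0 to 29 lower, 0 to 0 members and 0 to 4 pathway genes higher. The 160 and 76 came without solvent replicate 1 and 2, with the lone library assumed to vary like the other group.

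By the fold rule 3256 genes rose and 575 fell, with 1263 and 362 at a floor of 0.01, 5047 and 1367 at 1.5-fold and 1815 and 182 at 3-fold. Members higher were 2 at a floor of 0.01 and 2 at 3-fold, and 1 was lower at 3-fold. The sign of Fgfr1 turned under median-ratio scaling (-0.14, also with the block), without solvent replicate 2 (-0.06) and without MS-275 replicate 1 (-0.26; the range without a library was -0.26 to 0.54), and that of Fgfr4 without MS-275 replicate 1 (-0.089 to 1.03). Some list medians turned as well. That of the other FGF genes was -0.10 with quantile normalization, with and without the block, and -0.14 to 0.46 without a library. For heparan sulfate enzymes the same settings gave -0.13 and -0.038 to 0.53. Transducers ranged from -0.18 to 0.10 without a library. Targets were at -0.24 with median-ratio scaling, -0.063 with quantile normalization and -0.095 to 0.060 without a library. The cause was not tested. No sign of the other 8 members turned. Depth limits Fgf5 and Fgf8, with at most 18 positions in a library.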

Other observations

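Among the 10080 genes compared for reads outside the last exon, Lhfp followed Fgf1, from a mean share of 95.4% with solvent to 65.7% with MS-275. Slc27a2 (80.6% to 53.3%) and Vasn (70.8% to 44.5%) came next. These genes were named after their values were seen.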
